A study of Homo sapiens with 12 samples.

Results

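The genes described here are 31 genes of cholesterol and fatty acid synthesis, looked up by symbol in a matrix of read counts for 60623 genes. They comprise 18 sterol synthesis enzymes, 7 fatty acid synthesis enzymes and 6 genes that regulate the pathway or carry sterol. All 31 symbols were found, and all 31 were among the 17096 genes with enough reads to be tested. The libraries came from NUGC-4, an established diffuse gastric cancer cell line whose genotype label is WT. Cells were exposed for 24 h to 1 µM IN10018 together with 1 µM crizotinib (combination), to 1 µM crizotinib, to 1 µM IN10018 or to neither drug (control), with 3 libraries in each group. IN10018 inhibits focal adhesion kinase (FAK), and crizotinib inhibits the receptor tyrosine kinases ALK, MET and ROS1. The labels do not say what the control cells received in place of a drug. They also name no separate culture for each library, and the p-values then measure only how far these libraries spread, which may be technical. The model is a cell line grown in culture. In such bulk RNA, fewer cells and less RNA per cell cannot be told apart.

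Library totals ran from 13691844 to 20489708 reads. Mitochondrially encoded genes took 4.28% to 6.992% of reads in the combination, 5.208% to 13.27% in crizotinib, 11.46% to 12.69% in IN10018 and 11% to 11.92% in control. The libraries numbered 2 had the lowest share within the combination and within crizotinib, and both stood apart from their groups on a first principal component that held 67.2% of the variance. Of the 7 epithelial markers, KRT8 (1120 to 2360 CPM, read counts scaled to library size), KRT18 (531 to 1190 CPM) and EPCAM (15.5 to 21.1 CPM) were expressed, KRT19 was at 0 in every library, and the gastric markers TFF1 and TFF3 did not exceed 0.356 CPM. The description field of all samples names adipogenic differentiation, which no other label does. Of the 7 adipocyte markers, ADIPOQ, LEP and CIDEC were at or near 0 (at most 0.0694 CPM). FABP4 ran from 60.1 to 129 CPM, and PPARG was at 17.1 CPM or more in every library. PLIN1 ran from 0.822 to 3.47 CPM and CEBPA from 0.95 to 2.39 CPM. The summed level of the 7 adipocyte markers was 128 to 151 CPM in the combination and 106 to 141 CPM in crizotinib. It was 101 to 109 CPM in IN10018 and 108 to 119 CPM in control. The summed level of the 7 epithelial markers was 2350 to 3570 CPM in the combination, 1790 to 3130 CPM in crizotinib, 1670 to 1840 CPM in IN10018 and 1970 to 2100 CPM in control. Of 5 fibroblast markers, COL3A1 ran from 5060 to 6640 CPM, above KRT8, while the other 4 did not exceed 3.75 CPM. Of 4 leukocyte markers, CD14 ran from 17.4 to 33.2 CPM, CD3E was at 0 and PTPRC and LYZ did not exceed 0.319 CPM, and their sum was 28.1 to 33.4 CPM in the combination, 28.0 to 32.6 CPM in crizotinib, 17.4 to 20.0 CPM in IN10018 and 18.9 to 23.3 CPM in control. The part of these markers in the results was not tested.

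Cholesterol is built from acetyl-CoA in a chain that runs through mevalonate, the isoprenoid diphosphates and squalene to lanosterol, which is then trimmed and reduced to cholesterol. Fatty acids start from the same acetyl-CoA, which ATP citrate lyase makes in the cytosol. They are built by fatty acid synthase, lengthened by elongases and given double bonds by desaturases. Both branches are under the transcription factors SREBP1 and SREBP2, encoded by SREBF1 and SREBF2. SCAP escorts these factors out of the endoplasmic reticulum when sterols are scarce, and the INSIG proteins hold them back when sterols are plentiful. In cells whose sterol supply drops, the target genes of SREBP2 classically rise together, and NF-Y, which binds the CCAAT box, is a known partner of the SREBPs at their promoters.

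Windows of 250 bases before RefSeq transcription starts (GRCh38.p14) were found for 27 of the 31 genes, in 37 windows, since some genes have several annotated starts. FDFT1, SQLE, ACAT2 and FASN had none. A CCAAT box on either strand was present in 15 of the 20 windows of the sterol enzymes (75.0%), in 5 of the 10 of the fatty acid enzymes and in 23 of all 37 (62.2%), against 32.0% of the 35116 windows in the table. The sterol regulatory element motif TCACNCCAC was found on either strand in 1 of the 37 windows, that of SREBF2, and in 0.883% of all windows. The E-box CANNTG was in 43.2% of the members' windows and in 61.8% of all windows. A letter match is a description and not a binding site, and no match says only that these letters are not in the window.

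The sequences shown are those of MVD, which had the largest change with crizotinib, and of CYP51A1, MSMO1 and IDI1, sterol enzymes that were not called. EBP and TM7SF2, the sterol enzymes with the next largest changes, left no stretch outside annotated exons and are not shown. Their windows hold 3 and 1 CCAAT boxes. They are the RefSeq stretches before the start nearest the annotated gene start, cut where an annotated exon begins, and read 5′ to 3′ on the gene's strand with CCAAT or its reverse complement ATTGG in capitals. MVD spans chr16:88663162-88663297 on the minus strand, CYP51A1 chr7:92134531-92134603 on the minus strand, MSMO1 chr4:165327419-165327622 on the plus strand and IDI1 chr10:1049171-1049369 on the minus strand.
MVD: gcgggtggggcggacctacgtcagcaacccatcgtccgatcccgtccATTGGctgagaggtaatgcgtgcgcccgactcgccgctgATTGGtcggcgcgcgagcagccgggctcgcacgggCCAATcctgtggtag
CYP51A1: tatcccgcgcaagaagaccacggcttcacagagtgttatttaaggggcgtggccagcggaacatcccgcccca
MSMO1: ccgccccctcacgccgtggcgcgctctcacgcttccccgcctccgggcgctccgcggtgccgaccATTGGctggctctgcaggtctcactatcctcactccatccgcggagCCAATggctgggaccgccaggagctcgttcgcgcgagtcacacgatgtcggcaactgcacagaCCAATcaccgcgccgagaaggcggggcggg
IDI1: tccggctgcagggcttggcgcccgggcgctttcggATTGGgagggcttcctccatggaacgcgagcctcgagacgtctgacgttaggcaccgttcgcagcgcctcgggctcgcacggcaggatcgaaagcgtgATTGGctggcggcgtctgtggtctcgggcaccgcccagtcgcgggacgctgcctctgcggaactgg
The stretches of MVD and MSMO1 hold 3 CCAAT boxes each and that of IDI1 holds 2, while that of CYP51A1 holds none. They differ in length, with 136 bases for MVD, 204 for MSMO1, 199 for IDI1 and 73 for CYP51A1, so these counts are not on an equal footing. CCAAT boxes stood before a gene that rose and before genes that were not called. By call in the combination against control, a CCAAT box was in 9 of the 13 windows of genes that rose (69.2%). It was in 7 of the 15 of genes that were not called (46.7%) and in 7 of the 9 of genes that fell (77.8%). Windows of the same gene can overlap and are each counted, as for ACLY and SC5D, so these shares describe windows and not genes.

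The sterol enzymes did not move as a block. In the combination against control, 8 of the 18 rose, 1 fell and 9 were not called (edgeR quasi-likelihood test, adjusted p under 0.05), while 33.7% of all genes tested rose and 29.1% fell. Their median log2 change was 0.13, against 0.10 over all genes tested. With crizotinib alone, 6 of the 18 rose, none fell and 12 were not called, while 20.0% of all genes tested rose and 17.6% fell, and the median was 0.22 against 0.08. The changes of single enzymes ran from -1.03 to 1.99 on the log2 scale in the combination and from -0.54 to 1.39 with crizotinib. The 2 comparisons share their control libraries and are given side by side.

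**Figure D1:**
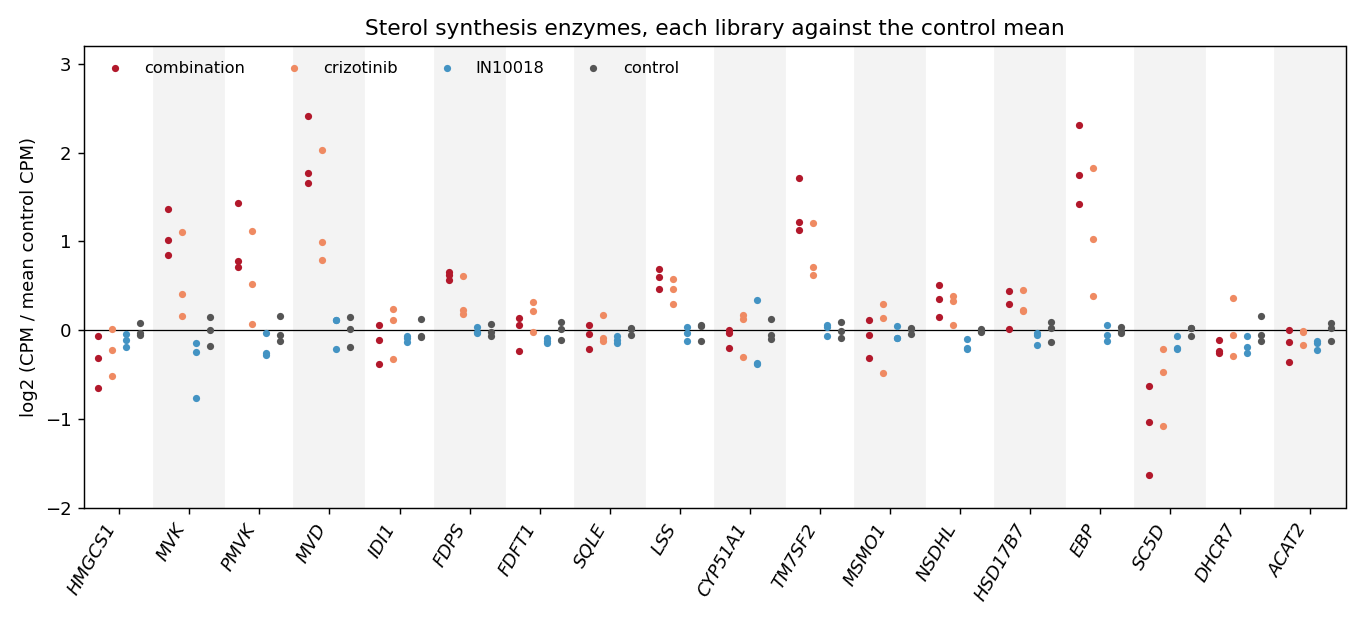
The 18 sterol enzymes in pathway order, except that ACAT2, an enzyme at the entry, is drawn last. Each library is a point at the log2 ratio of its CPM to the mean CPM of the 3 control libraries (y axis, no unit). Points run, left to right for each gene, from the combination through crizotinib and IN10018 to control. MVD, EBP and TM7SF2 lie highest and SC5D lowest in the combination, and the IN10018 points lie near the control points.

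At the entry to the pathway no enzyme was called. HMGCS1, which makes HMG-CoA, had 49.1, 38.9 and 58.2 CPM in the combination, 61.9, 42.8 and 52.4 CPM in crizotinib, 53.5, 59.4 and 56.7 CPM in IN10018 and 58.6, 59.7 and 64.6 CPM in control. All 3 combination libraries lay below the control libraries, but the change of -0.32 ± 0.15 (log2, SE) did not pass the test (edgeR adjusted p = 0.073), and with an offset for GC content and length it was 0.24. ACAT2, the cytosolic thiolase at the entry, was not called either (-0.15 in the combination and -0.06 with crizotinib, edgeR adjusted p = 0.23 and 0.68), and it overlaps TCP1, a gene with up to 311 CPM on the other strand.

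The 3 enzymes that turn mevalonate into isopentenyl diphosphate were all higher in the combination. MVD (chr16:88651935-88663161, minus strand, GRCh38), the decarboxylase that closes this stretch, had 39.97, 62.3 and 36.8 CPM in the combination, 20.2, 47.9 and 23.3 CPM in crizotinib, 10.1, 12.7 and 12.7 CPM in IN10018 and 11.8, 13.0 and 10.3 CPM in control. Every combination and every crizotinib library lay above every control library, and the library numbered 2 was the highest in both drug groups. MVD rose by 1.99 ± 0.29 (log2, SE) in the combination and by 1.39 ± 0.29 with crizotinib (edgeR adjusted p = 0.00012 and 0.0048). With both libraries numbered 2 left out the changes were 1.72 and 0.90. MVK, mevalonate kinase, had 14.6, 18.6 and 13.0 CPM in the combination, 8.05, 15.5 and 9.59 CPM in crizotinib, 4.26, 6.10 and 6.54 CPM in IN10018 and 7.99, 6.40 and 7.23 CPM in control. It rose in the combination (1.09 ± 0.23, edgeR adjusted p = 0.0012) and lay just outside the threshold with crizotinib (0.62 ± 0.24, edgeR adjusted p = 0.051). MVK overlaps MMAB, a gene with up to 28.9 CPM on the other strand. PMVK, phosphomevalonate kinase, had 60.6, 95.2 and 58.1 CPM in the combination, 37.2, 77.0 and 51.0 CPM in crizotinib, 29.2, 29.7 and 34.6 CPM in IN10018 and 32.6, 34.0 and 39.6 CPM in control. The crizotinib and control libraries of PMVK overlapped. It rose by 1.01 ± 0.23 in the combination and by 0.64 ± 0.23 with crizotinib (edgeR adjusted p = 0.002 and 0.044). With the offset for GC content and length neither PMVK change passed the test (0.12 and 0.06), and 9 of the 12 omissions of 1 library ended its call with crizotinib: each of control 1, 2 and 3, IN10018 1, 2 and 3, crizotinib 2 and 3 and combination 1.

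Between isopentenyl diphosphate and lanosterol, the enzymes split. FDPS, which makes farnesyl diphosphate, had 67.2, 68.95 and 65.0 CPM in the combination, 49.6, 67.1 and 51.3 CPM in crizotinib, 44.8, 43.2 and 42.9 CPM in IN10018 and 46.2, 43.2 and 42.0 CPM in control. FDPS rose by 0.62 ± 0.12 in the combination and by 0.36 ± 0.12 with crizotinib (edgeR adjusted p = 0.00052 and 0.028), and the crizotinib call was lost without control 1, 2 or 3 or crizotinib 2. LSS, which closes squalene epoxide to lanosterol, had 100.2, 117.4 and 110.7 CPM in the combination, 100.7, 108.6 and 89.7 CPM in crizotinib, 71.2, 67.0 and 74.9 CPM in IN10018 and 76.0, 75.3 and 67.0 CPM in control. The control libraries lay below both drug groups throughout. LSS rose by 0.59 ± 0.11 and 0.45 ± 0.11 (edgeR adjusted p = 0.00039 and 0.0075), and without control 3 the crizotinib call was lost. IDI1, which isomerises isopentenyl diphosphate, FDFT1, squalene synthase, and SQLE, squalene epoxidase, were not called in either comparison, with log2 changes of -0.13, 0.00 and -0.06 in the combination and 0.03, 0.18 and 0.00 with crizotinib. SQLE, a rate-limiting step of the late pathway, averaged 165.0 ± 15.4 CPM in the combination, 172.3 ± 19.9 CPM in crizotinib, 160.7 ± 4.20 CPM in IN10018 and 172.5 ± 5.11 CPM in control (SD, n = 3 each).

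After lanosterol came the next largest rises after MVD, those of EBP and TM7SF2 in both comparisons, and the only fall called among the 18 enzymes. EBP (chrX:48521158-48528716, plus strand), the sterol isomerase, had 83.7, 123.2 and 66.6 CPM in the combination, 32.6, 88.0 and 50.8 CPM in crizotinib, 24.0, 23.0 and 25.9 CPM in IN10018 and 24.7, 25.6 and 24.4 CPM in control. As for MVD, no library of either drug group overlapped control, and the library numbered 2 was the highest. EBP rose by 1.87 ± 0.29 in the combination and by 1.20 ± 0.28 with crizotinib (edgeR adjusted p = 0.00016 and 0.008), and by 1.60 and 0.74 without both libraries numbered 2. TM7SF2 (chr11:65111845-65116384, plus strand), a sterol reductase, had 46.5, 65.4 and 43.6 CPM in the combination, 30.6, 46.2 and 32.8 CPM in crizotinib, 20.6, 19.1 and 20.8 CPM in IN10018 and 19.9, 21.3 and 18.8 CPM in control. It rose by 1.38 ± 0.17 and 0.87 ± 0.17 (edgeR adjusted p = 6.9e-05 and 0.0042), and it shares sequence on its strand with VPS51, a gene of up to 52.9 CPM, so that reads could have been split between them. NSDHL, a decarboxylating sterol dehydrogenase, rose by 0.34 ± 0.12 in the combination (edgeR adjusted p = 0.022), a call that was lost without any of control 1, 2 and 3 or combination 1 and 2, and was not called with crizotinib (0.27, edgeR adjusted p = 0.091).

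SC5D (chr11:121292453-121308694, plus strand), the desaturase near the end of the chain, went the other way. It had 19.2, 12.6 and 25.4 CPM in the combination, 33.8, 18.5 and 28.2 CPM in crizotinib, 33.9, 34.2 and 37.4 CPM in IN10018 and 39.97, 37.5 and 39.8 CPM in control. The library numbered 2 was the lowest in both groups that received crizotinib. SC5D fell by 1.03 on the log2 scale in the combination (SE 0.22, edgeR adjusted p = 0.0013). With crizotinib its change was -0.54 ± 0.22 and was not called (edgeR adjusted p = 0.064), although it passed in 11 of the alternatives tried. DHCR7, whose reductase step gives cholesterol, had 46.1, 45.6 and 50.5 CPM in the combination, 69.9, 44.5 and 52.4 CPM in crizotinib, 47.6, 45.6 and 52.0 CPM in IN10018 and 60.5, 49.9 and 52.4 CPM in control, and was not called (-0.19 in the combination, edgeR adjusted p = 0.25). CYP51A1 and MSMO1, which remove methyl groups from lanosterol, were at -0.07 each in the combination and 0.02 each with crizotinib, and HSD17B7, a sterol ketoreductase, was at 0.27 and 0.31, none of them called. CYP51A1 was low, at 2.88 to 4.75 CPM over the 12 libraries. It overlaps AC000120.2 and AC000120.3, protein-coding genes on its own strand that were at 0 CPM. Reads that fall in more than 1 of these genes may not have been counted. The part of this overlap in the low level of CYP51A1 was not tested.

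**Figure D2:**
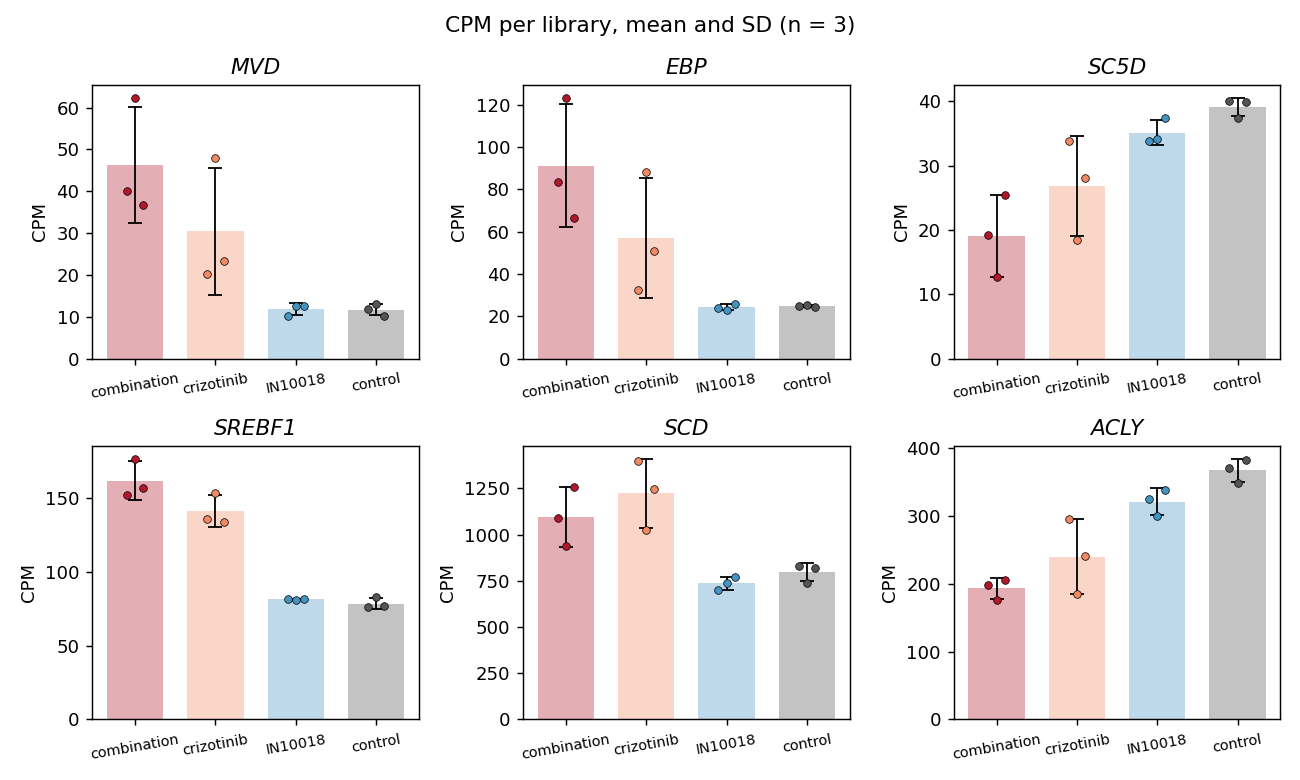
CPM (y axis, from 0) of MVD, EBP, SC5D, SREBF1, SCD and ACLY in each library (points), with the group mean (bar) and SD (error bar, n = 3), for the combination, crizotinib, IN10018 and control. The IN10018 bars lie near control for all 6 genes. MVD, EBP and SREBF1 are higher and SC5D and ACLY lower in the combination than in control.

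The summed level of the 18 sterol enzymes was 912.7, 984.9 and 933.2 CPM in the combination, 849.5, 913.9 and 877.2 CPM in crizotinib, 697.9, 694.6 and 728.2 CPM in IN10018 and 766.4, 741.7 and 763.6 CPM in control. Every library of the combination and of crizotinib lay above every control library, and every IN10018 library lay below. Per kb of annotated exon, the level in control cells was highest for SQLE among the sterol enzymes (40.1 ± 1.19 CPM per kb) and lowest for CYP51A1 (1.05 ± 0.0891 CPM per kb), MVK (1.11 ± 0.123 CPM per kb) and HSD17B7 (1.42 ± 0.111 CPM per kb), with MVD next (2.48 ± 0.285 CPM per kb, SD, n = 3). The values of CYP51A1 and MVK differed by less than their SD. Because CYP51A1 overlaps other genes on its strand, its place in this order is uncertain. MVD and MVK, which rose in the combination, were thus among the lowest in control, as were CYP51A1 and HSD17B7, which were not called.

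The fatty acid enzymes moved in both directions, as did all genes tested. In the combination 3 of the 7 rose, 3 fell and 1 was not called (42.9% and 42.9%, against 33.7% and 29.1% of all genes tested). With crizotinib 2 rose, 1 fell and 4 were not called (28.6% and 14.3%, against 20.0% and 17.6%). Their median log2 change was 0.18 in each comparison, against 0.10 and 0.08 over all genes tested.

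SCD (chr10:100347124-100364834, plus strand), the desaturase that makes monounsaturated fatty acids, had 1089, 936.4 and 1260.2 CPM in the combination, 1398, 1028 and 1248 CPM in crizotinib, 699.2, 740.5 and 771.5 CPM in IN10018 and 829.9, 740.5 and 820.5 CPM in control. Both groups that received crizotinib lay above control in every library, and here the libraries numbered 2 were the lowest of their groups. SCD rose by 0.46 ± 0.13 in the combination and by 0.62 ± 0.13 with crizotinib (edgeR adjusted p = 0.007 and 0.0049). FASN, fatty acid synthase, had 723.5, 914.3 and 862.6 CPM in the combination, 633.0, 874.3 and 687.4 CPM in crizotinib, 495.1, 434.6 and 522.1 CPM in IN10018 and 614.7, 582.7 and 567.3 CPM in control. FASN rose by 0.50 ± 0.13 in the combination (edgeR adjusted p = 0.0042), a change that was -0.12 with the offset for GC content and length, and was not called with crizotinib (0.31 ± 0.13, edgeR adjusted p = 0.069). FADS2, which desaturates polyunsaturated fatty acids, had 14.5, 16.4 and 14.1 CPM in the combination, 13.6, 15.96 and 12.6 CPM in crizotinib, 10.4, 9.03 and 7.30 CPM in IN10018 and 8.74, 10.3 and 9.94 CPM in control. It rose by 0.63 ± 0.15 and 0.53 ± 0.15 (edgeR adjusted p = 0.0024 and 0.015), and without control 1, control 3 or crizotinib 2 the crizotinib call was lost. FADS2 overlaps FEN1 on its own strand and FADS1 on the other, and both neighbours have more reads, up to 70.9 and 293 CPM. FADS1, the partner desaturase, was not called in either comparison (0.18 in each).

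ACLY (chr17:41866908-41930542, minus strand), ATP citrate lyase, supplies the acetyl-CoA of both branches. It had 197.7, 175.8 and 205.4 CPM in the combination, 294.4, 184.1 and 241.2 CPM in crizotinib, 324.0, 299.7 and 338.5 CPM in IN10018 and 370.7, 348.8 and 381.7 CPM in control. All combination and all crizotinib libraries lay below control. ACLY fell by 0.93 on the log2 scale in the combination (SE 0.14, edgeR adjusted p = 0.00015) and by 0.61 with crizotinib (SE 0.14, edgeR adjusted p = 0.0069), and with the offset for GC content and length the changes were -0.94 and -0.63. ACACA, acetyl-CoA carboxylase, which commits acetyl-CoA to fatty acids, had 120.1, 118.8 and 134.0 CPM in the combination, 154.0, 119.5 and 140.6 CPM in crizotinib, 146.3, 133.8 and 146.9 CPM in IN10018 and 155.6, 146.9 and 152.3 CPM in control. ACACA fell by 0.29 on the log2 scale in the combination (SE 0.11, edgeR adjusted p = 0.029), a call that was lost without control 1, combination 1 or combination 2. ELOVL6, which elongates saturated and monounsaturated fatty acids, fell by 0.49 on the log2 scale in the combination (SE 0.14, edgeR adjusted p = 0.007), averaging 92.7 ± 15.1 CPM there and 130.3 ± 4.54 CPM in control (SD, n = 3 each), and stood at 0.11 with the offset for GC content and length. Neither ACACA nor ELOVL6 was called with crizotinib (-0.14 and -0.23, edgeR adjusted p = 0.32 and 0.19).

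**Figure D3:**
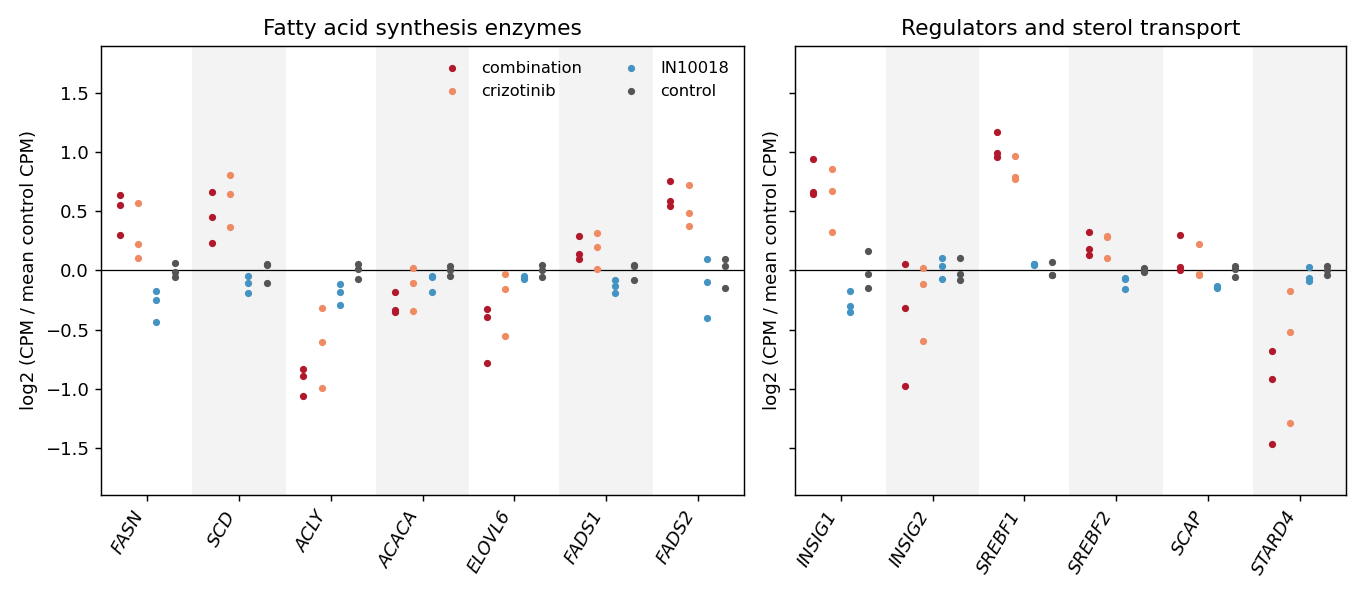
The 7 fatty acid enzymes (left) and the 6 genes of regulation and sterol transport (right), each library as a point at the log2 ratio of its CPM to the mean control CPM (y axis, no unit), ordered for each gene from the combination through crizotinib and IN10018 to control. SREBF1, INSIG1, SCD and FADS2 lie above control and ACLY below it in all 6 libraries that received crizotinib, and STARD4 spreads widely among those 6.

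The summed level of the 7 fatty acid enzymes was 2503, 2489 and 2868 CPM in the combination, 2891, 2548 and 2740 CPM in crizotinib, 2015, 1948 and 2134 CPM in IN10018 and 2352, 2177 and 2309 CPM in control. FASN and SCD carried most of that sum. In control cells SCD had 148.6 ± 9.16 CPM per kb of exon, followed by ACLY (70.4 ± 3.22 CPM per kb) and FASN (62.8 ± 2.58 CPM per kb). FADS2 was the lowest of the 31 genes by this measure, at 0.877 ± 0.075 CPM per kb (SD, n = 3). The exon length joins all annotated transcripts, 11026 bases for FADS2. In plain CPM, FADS2 averaged 9.67 in control, above CYP51A1 (3.75), HSD17B7 (6.80) and MVK (7.21).

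Of the 6 genes of regulation and transport, 2 rose, 1 fell and 3 were not called in the combination, and 2 rose and 4 were not called with crizotinib. The share that rose in the combination, 33.3%, was near the 33.7% of all genes tested, and 16.7% fell against 29.1%, while with crizotinib 33.3% rose against 20.0%. SREBF1 (chr17:17810399-17837002, minus strand), which encodes SREBP1, had 152.6, 177.0 and 156.8 CPM in the combination, 136.1, 154.0 and 134.1 CPM in crizotinib, 81.6, 81.3 and 81.8 CPM in IN10018 and 76.4, 82.8 and 76.7 CPM in control. The lowest library of the 6 that received crizotinib, at 134.1 CPM, lay above the highest control library, at 82.8 CPM. SREBF1 rose by 1.04 ± 0.10 in the combination and by 0.85 ± 0.10 with crizotinib (edgeR adjusted p = 1.9e-05 and 0.00028), with a smaller SE than MVD, EBP, TM7SF2 and MVK, whose rises in the combination were larger. With the offset for GC content and length its changes were 0.51 and 0.56 and were still called. SREBF1 overlaps RAI1, a gene with up to 47.0 CPM on the other strand. INSIG1, an SREBP target whose protein retains SCAP, had 19.4, 19.2 and 23.5 CPM in the combination, 19.5, 15.3 and 22.1 CPM in crizotinib, 9.57, 9.89 and 10.8 CPM in IN10018 and 11.95, 11.0 and 13.7 CPM in control. INSIG1 rose by 0.76 ± 0.15 and 0.63 ± 0.15 (edgeR adjusted p = 0.00072 and 0.008).

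SREBF2, which encodes SREBP2, had 93.3, 107.1 and 96.6 CPM in the combination, 103.8, 104.2 and 91.7 CPM in crizotinib, 81.6, 76.5 and 80.9 CPM in IN10018 and 84.9, 86.7 and 84.4 CPM in control. Although both crizotinib groups lay above control, the changes of 0.21 ± 0.09 and 0.23 ± 0.09 were not called (edgeR adjusted p = 0.06 and 0.069). SCAP, the escort protein, and INSIG2, a related retention protein, were not called either (0.12 and -0.35 in the combination, 0.06 and -0.21 with crizotinib), and with the offset SCAP was at -0.43 and -0.25. STARD4 (chr5:111496033-111512590, minus strand), a soluble sterol carrier and SREBP2 target, had 56.4, 38.5 and 66.4 CPM in the combination, 94.7, 43.6 and 74.2 CPM in crizotinib, 100.5, 109.1 and 102.3 CPM in IN10018 and 107.1, 103.7 and 109.6 CPM in control. The crizotinib libraries were spread over a range wider than the gap to control. STARD4 fell by 0.99 on the log2 scale in the combination (SE 0.23, edgeR adjusted p = 0.002) and was not called with crizotinib (-0.59 ± 0.23, edgeR adjusted p = 0.052).

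**Figure D4:**
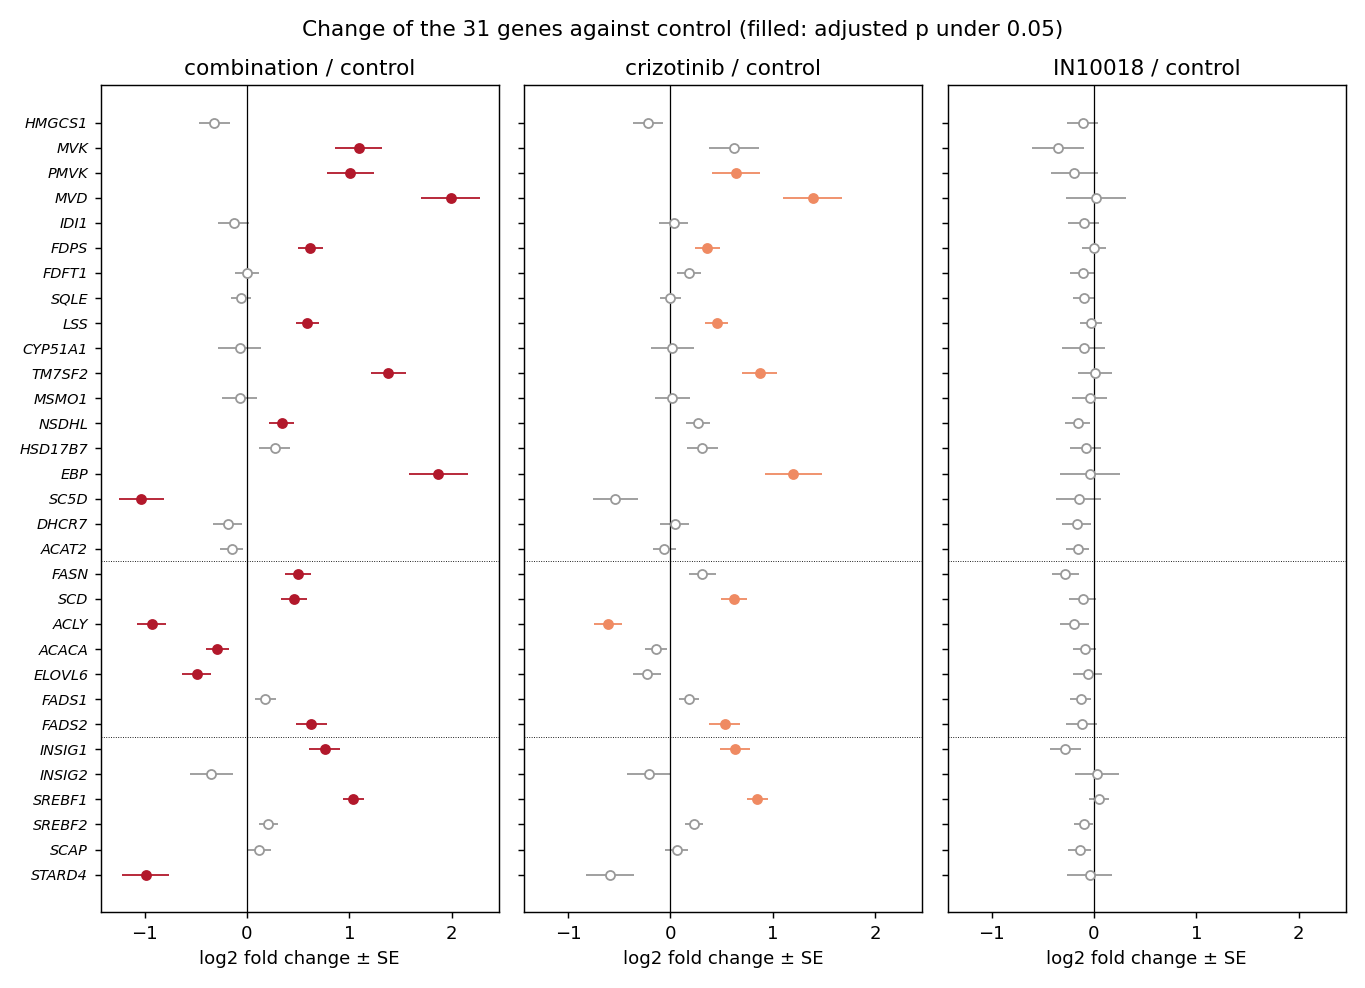
Log2 fold change (x axis) of the 31 genes against control with its SE (bars), in the combination (left), crizotinib (middle) and IN10018 (right). Filled points passed an edgeR adjusted p of 0.05. Filled points number 18 in the combination, 11 with crizotinib and 0 with IN10018.

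Over all 31 genes, 13 rose and 5 fell in the combination (41.9% and 16.1%), and 10 rose and 1 fell with crizotinib (32.3% and 3.23%). Of all genes tested, 33.7% rose and 29.1% fell in the combination and 20.0% rose and 17.6% fell with crizotinib. With library totals in place of TMM scaling, 17 rose and 3 fell in the combination, among them 4 and 1 of the 7 fatty acid enzymes, while 41.5% of all genes tested rose and 22.0% fell. MVD, EBP, TM7SF2, SCD, INSIG1, SREBF1 and ACLY were called in both comparisons under every alternative tried.

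With IN10018 alone no change of the 31 genes passed the test. By edgeR 0 were called, while 0.345% of all genes tested rose and 0.158% fell, and at an unadjusted p under 0.05 there was 1, FASN (-0.28 ± 0.13, unadjusted p = 0.047, edgeR adjusted p = 0.45). With DESeq2 and with limma-voom 0 were called as well. The median change of the 31 genes was -0.10, against -0.02 over all genes tested, and the range was -0.35 (MVK) to 0.05 (SREBF1). In 8 of the 31 all 3 IN10018 libraries lay below all 3 control libraries, and in none above, while 18.9% of all genes tested lay below and 14.0% above in this way. When the fit held only the 6 libraries compared, 2 of the 31 were called lower, FASN and ACLY, while 8.37% of all genes were called higher and 5.33% lower.

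Against IN10018 in place of control, the combination was compared to see what crizotinib added to the FAK inhibitor. Here 15 of the 31 genes rose, 4 fell and 12 were not called, while 29.7% of all genes tested rose and 27.5% fell, with a median of 0.31 against 0.04. Of the sterol enzymes 8 rose and 1 fell, and of the fatty acid enzymes 4 rose and 2 fell. This comparison shares the combination libraries with that against control. FASN changed by 0.78 ± 0.13 (edgeR adjusted p = 0.00048), INSIG1 by 1.04 ± 0.15 (edgeR adjusted p = 0.00037) and NSDHL by 0.51 ± 0.12 (edgeR adjusted p = 0.0029). FADS1 (0.31 ± 0.10, edgeR adjusted p = 0.017) and SREBF2 (0.31 ± 0.09, edgeR adjusted p = 0.012) were called here. The FADS1 call was lost without IN10018 1, IN10018 2 or combination 3, and the SREBF2 call without IN10018 2 or combination 2. With the offset for GC content and length, FASN was at 0.12 and SREBF2 at 0.07 in this comparison, and the calls of FASN, SREBF2, SC5D, STARD4 and ELOVL6 were lost.

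Between the combination and crizotinib, none of the 31 genes was called in the edgeR fit of all 12 libraries, nor by DESeq2 or limma-voom. By edgeR 0.0% of all genes tested were called higher and 0.0117% lower. At an unadjusted p under 0.05 there were 6: MVD, FDPS, TM7SF2, EBP, SC5D and ACLY. The share of all genes at an unadjusted p is not given, here or for the other comparisons. The libraries of these groups deviate together by number: the correlation of their deviations from the group means was 0.218, 0.624 and 0.275 for numbers 1, 2 and 3. Crizotinib 1 correlated more with combination 3 (0.422) than with its own number. Within numbers, MVD had a log2 ratio of the combination to crizotinib of 0.98, 0.38 and 0.66, EBP of 1.36, 0.48 and 0.39, TM7SF2 of 0.60, 0.50 and 0.41, and SC5D of -0.82, -0.55 and -0.15. Of the 18 sterol enzymes 6 were higher in the combination in all 3 pairs and 3 were lower in all 3. The share of all genes that did so was not computed, so this count only describes the members. With the number as a block and only these 6 libraries, 5 sterol enzymes rose: MVD (0.67, edgeR adjusted p = 0.00058), TM7SF2 (0.51, adjusted p = 0.0019), EBP (0.74, adjusted p = 0.0026), MVK (0.51, adjusted p = 0.01) and PMVK (0.41, adjusted p = 0.011). In that fit SC5D (-0.49, edgeR adjusted p = 0.0082) and STARD4 (-0.36, adjusted p = 0.028) fell, and no fatty acid enzyme was called, while 12.1% of all genes rose and 11.0% fell.

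The library numbered 2 of crizotinib decided much of this comparison. On the first principal component it lay at 57.8, among the combination libraries (56.3, 91.4 and 37.8), while crizotinib 1 and 3 lay at -4.6 and 10.3. Leaving it out therefore widens the distance between the 2 groups on that component by construction. The calls without it describe how far the comparison hangs on this library and are no separate support for a difference. Without crizotinib 2, 12 of the 31 genes were called: EBP, FASN, FDPS, MVD, MVK, PMVK and TM7SF2 higher and SC5D, DHCR7, ACLY, ELOVL6 and STARD4 lower in the combination, while 15.0% of all genes were called higher and 17.3% lower. With both libraries numbered 2 left out, 6 rose and 5 fell, while 10.9% of all genes rose and 14.4% fell, and MVD was at 0.82 and EBP at 0.86 (edgeR adjusted p = 0.00012 and 0.0008). Crizotinib 2 was the library farthest from the control mean of its 3 for 23 of the 31 genes (74.2%), and combination 2 for 26 (83.9%), against 68.9% and 69.8% of all genes tested. The lower mitochondrial share of these libraries moved with these values, and its part in the result was not tested. With the mitochondrially encoded genes removed before scaling, all 18 calls of the combination against control were kept, and 10 of the 11 with crizotinib (PMVK was lost). This removal concerns the scaling only and cannot show whether the nuclear genes vary with the mitochondrial share.

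The test of whether the effect of both drugs differs from the sum of their single effects on the log2 scale called 0 of the 31 genes by edgeR, while 0.0585% of all genes tested were called higher and 0.0117% lower. At an unadjusted p under 0.05 there were 2, MVK (0.82 ± 0.33, adjusted p = 0.60) and FASN (0.47 ± 0.18, adjusted p = 0.57). With both libraries numbered 2 left out, 7 were called higher, EBP, FASN, FDPS, MVD, MVK, PMVK and TM7SF2, and STARD4 was called lower, while 5.41% of all genes were called higher and 5.71% lower. DESeq2 and limma-voom called none on the full set of libraries.

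The genes that rose and those that did not differed in base composition. The median GC content of the longest transcript was 58.2% (50.5% to 64.2%) in the 8 sterol enzymes that rose in the combination. It was 41.7% (38.1% to 58.3%) in the 9 that were not called. Of the 31 genes 5 fell, with 34.2% in STARD4, 38.6% in SC5D, 41.2% in ELOVL6, 48.7% in ACACA and 52.2% in ACLY. Spearman's rho between GC content and the log2 change in the combination was 0.72 over the 18 sterol enzymes and 0.69 over all 31 genes, and 0.52 over the 16866 tested genes with a GC value. For crizotinib the values were 0.79, 0.68 and 0.48, and for IN10018 0.09, -0.13 and -0.01. Genes in 1 library share its preparation, so these are descriptions across genes. Exceptions were DHCR7 (58.3% GC), SCAP (62.3% GC) and SREBF2 (57.1% GC), which were not called, and ACLY, which fell. SCD (47.1% GC) and INSIG1 (46.0% GC) rose at a lower GC content.

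**Figure D5:**
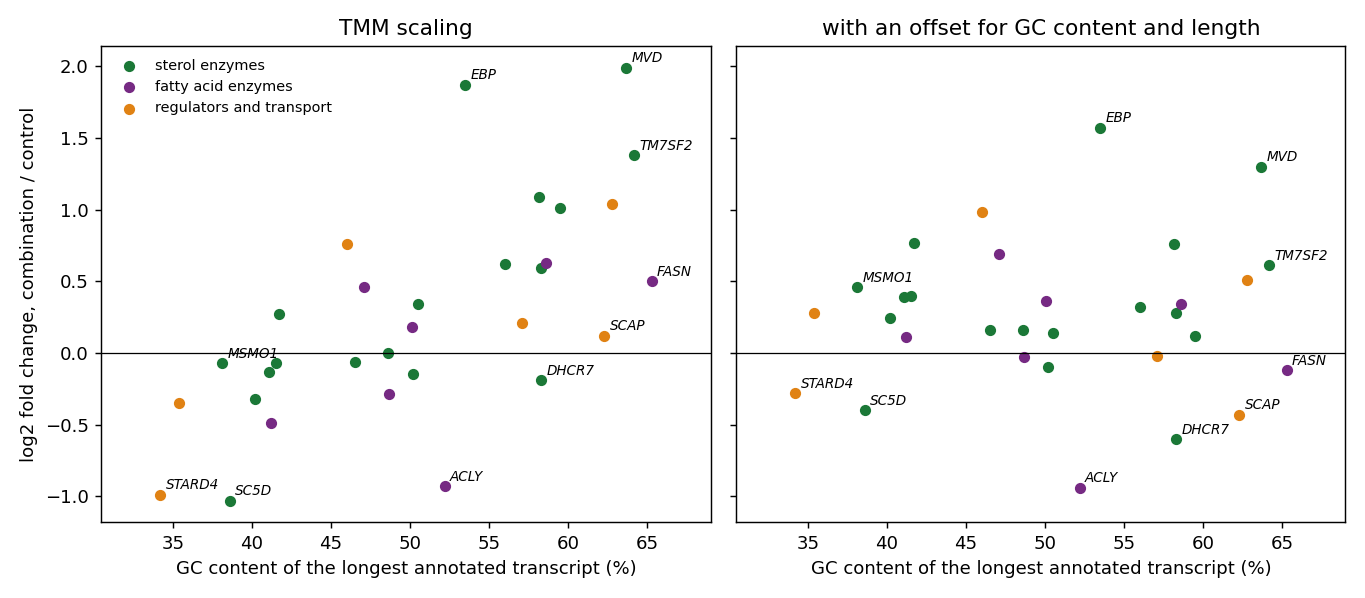
GC content of the longest annotated transcript (x axis, %) and log2 fold change of the combination against control (y axis) for the 31 genes, with TMM scaling (left) and with an offset for GC content and length (right). With TMM, genes of high GC content lie higher. With the offset, MVD (1.30), EBP (1.57) and TM7SF2 (0.61) are still above 0 and ACLY (-0.94) below it.

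With an offset fitted for GC content and length in each library, 13 of the 18 calls of the combination against control were kept in the same direction, and 15 of the 31 genes rose and 5 fell, while 32.0% of all genes rose and 23.9% fell. MVD (1.30, edgeR adjusted p = 5.7e-05), EBP (1.57, adjusted p = 0.00021), TM7SF2 (0.61, adjusted p = 2.6e-05), INSIG1 (0.98, adjusted p = 2.4e-05), SCD (0.69, adjusted p = 7.4e-05) and ACLY (-0.94, adjusted p = 6.9e-05) were among those kept. SC5D and STARD4 were kept at -0.40 and -0.28. The calls lost were ACACA, ELOVL6, FASN, NSDHL and PMVK. IDI1 (0.39, edgeR adjusted p = 0.0013), MSMO1 (0.46, adjusted p = 0.0018) and HMGCS1 (0.24, adjusted p = 0.022) were called higher with this offset, and HMGCS1 was called lower with DESeq2, at which IDI1 and MSMO1 were not called. Of the sterol enzymes 10 then rose and 2 fell.

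Other genes of the pathway, from lists of non-members, are given for the comparisons against control, in which 33.7% of all genes tested rose and 29.1% fell in the combination and 20.0% rose and 17.6% fell with crizotinib. These values are from the main fit only, without the offset for GC content and length or omission of libraries numbered 2. Over the tested genes with a GC value, the change rose with GC content (Spearman's rho 0.52 in the combination and 0.48 with crizotinib). The part of GC content in these lists was not tested. Of 8 tested genes of SREBP processing and sterol sensing, 7 fell and 0 rose in the combination (87.5% fell, against 29.1% of all genes), and 5 fell with crizotinib (62.5%, against 17.6%). MBTPS2, a protease that releases SREBPs in the Golgi, averaged 44.7 ± 12.8 CPM in the combination, 68.7 ± 22.1 CPM in crizotinib and 130.9 ± 6.77 CPM in control (SD, n = 3 each), and fell by 1.55 and 0.93 on the log2 scale (edgeR adjusted p = 0.0001 and 0.0069). RNF139, a sterol-sensing ubiquitin ligase, fell by 1.28 and 0.72, and ERLIN1, which binds the SREBP-SCAP-INSIG complex, fell by 1.18 and 0.70 on the log2 scale (edgeR adjusted p = 0.00024 and 0.018 for RNF139, 7.3e-05 and 0.0052 for ERLIN1).

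Of 15 genes of the LXR receptors, sterol export, esterification and lysosomal transfer, 4 rose and 5 fell in the combination (26.7% and 33.3%), and 3 rose and 3 fell with crizotinib (20.0% and 20.0%), shares near those of all genes. NR1H3, which encodes LXRα, a sterol-sensing receptor that activates SREBF1, averaged 86.7 ± 19.9 CPM in the combination, 69.9 ± 21.5 CPM in crizotinib and 36.1 ± 0.519 CPM in control (SD, n = 3 each), and rose by 1.26 and 0.95 on the log2 scale (edgeR adjusted p = 0.00015 and 0.0042). SOAT1, which esterifies cholesterol, fell by 0.72 and 0.52, and OSBP, an oxysterol binding protein, fell by 0.71 and 0.45 on the log2 scale. Of 10 tested genes of the isoprenoid branch, 1 rose and 5 fell in the combination (10.0% and 50.0%), and 1 rose and 1 fell with crizotinib (10.0% and 10.0%). DHDDS, which makes dolichol precursors, rose by 0.67 and 0.41, and PDSS1 and PDSS2, which make the side chain of coenzyme Q, changed by -0.80 and -0.58 in the combination.

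Of 26 tested genes of further fatty acid and glycerolipid synthesis, 10 rose and 12 fell in the combination (38.5% and 46.2%, against 33.7% and 29.1% of all genes tested), and 8 rose and 8 fell with crizotinib (30.8% and 30.8%, against 20.0% and 17.6%). Their median log2 changes were -0.16 and -0.14, against 0.10 and 0.08 over all genes tested. MLXIPL, which encodes the carbohydrate-responsive factor ChREBP, rose by 2.42 ± 0.29 in the combination (edgeR adjusted p = 6.1e-05), at a low level of 2.92 ± 0.729 CPM in the combination and 0.545 ± 0.153 CPM in control (SD, n = 3 each). HACD2 and HACD3, dehydratases of fatty acid elongation, fell by 1.05 and 1.06 on the log2 scale in the combination (edgeR adjusted p = 6.2e-05 and 7.8e-05). With crizotinib HACD2, ACSL1, an acyl-CoA synthetase, and GPAM, the acyltransferase that starts glycerolipid synthesis, had the smallest p and fell by 0.72, 0.76 and 0.63 on the log2 scale.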

How the data were processed

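The authors deposited raw read counts per gene for 12 libraries, not normalized. Per the submitters' processing notes, Trimmomatic, FastQC, HISAT2, featureCounts and DESeq2 were used on hg38/GRCh38. Versions, the annotation and the strand setting are not given in the sources used here. TRIzol extraction and a directional library kit are given per the labels' protocols. Reads of overlapping genes and of gene copies are therefore uncertain.

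All 12 libraries entered 1 edgeR 4.0.16 fit (R 4.3.3). Low genes were removed by filterByExpr with the groups given, and the test was, after TMM scaling, a robust quasi-likelihood F test with Benjamini-Hochberg adjustment over 17096 genes. A gene was called at an adjusted p under 0.05. The common biological coefficient of variation was 0.139. CPM are TMM-scaled. The fit was tested on simulated counts. Library totals of 13691844 to 20489708 reads set the counting precision. Alternatives comprised DESeq2 1.42.0, limma-voom (limma 3.58.1), DESeq2 size factors, library totals, other filters and removal of mitochondrially encoded genes. Others were a spline offset for GC content and length, the replicate number as a block, omission of libraries and a covariate for the axis of spread within groups. This covariate was derived from the deviations of these same libraries from their group means. It takes up spread by construction, so its higher counts of calls are no check on the main fit. The direct block fit of the 6 crizotinib and combination libraries was chosen after seeing the data.

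Replicate numbers come from the sample titles. Deviations from the group means correlated over 0.1 in all 3 same-number pairs of the combination and crizotinib (0.218, 0.624 and 0.275), although crizotinib 1 correlated more with combination 3 (0.422), but in only 8 of all 18 same-number pairs of the 4 groups (-0.028 to 0.624). Hence the blocked values stand beside that comparison alone.

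GENCODE 29 (GRCh38) gave positions, exon lengths and GC content, and 96.52% of the identifiers in the matrix were found in it. Promoter windows came from RefSeq on GRCh38.p14. The members and the lists were chosen with earlier results of these data known. All 31 members are reported, and of each other list the called genes with the smallest p, up to 3 in each comparison against control.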

Additional observations from a re-analysis of the deposited data

How the results depend on the processing

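Results were recomputed under 12 omissions of 1 library and 13 other settings. In the combination against control, the counts of sterol and fatty acid enzymes that rose (8 and 3) stayed within 1.5 times under each. The count of sterol enzymes that fell (1) was 2 with DESeq2, DESeq2 size factors, no filter, the replicate block, only the libraries compared and the offset for GC content and length, 4 with the within-group axis as covariate, and 1 to 2 when 1 library was left out. The fatty acid enzymes that fell (3) were 1 with library totals and with the offset. With crizotinib against control, the sterol enzymes that rose (6) were 10 with the covariate and 3 to 8 with 1 library left out (3 without control 3), and those that fell (0) were 1 with DESeq2, limma-voom, DESeq2 size factors, no filter, the replicate block, mitochondrially encoded genes removed or both libraries numbered 2 left out, 2 with the covariate and 0 to 1 with 1 left out. The fatty acid enzymes that rose (2) were 4 with library totals and with the covariate, and 1 to 3 with 1 left out (1 without control 1, control 3 or crizotinib 2), and those that fell (1) were 3 with the covariate. With IN10018 against control, 2 fatty acid enzymes fell with only the libraries compared and 1 with the covariate. In the combination against IN10018, the offset gave 14 sterol enzymes that rose and 0 that fell, the covariate 2 that fell, and 1 left out 1 to 2. Fatty acid enzymes that fell there (2) were 1 with library totals and the offset, and 1 to 2 with 1 left out. The count of all genes called also varied by setting. In the combination against IN10018 the offset called 8225 and the covariate 11396, while in the main fit 5079 rose and 4706 fell. The covariate called 12175 in the combination and 9718 with crizotinib against control. With IN10018 against control, only the libraries compared gave 2159 and the covariate 1546.

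In the combination against crizotinib, sterol enzymes called higher and lower (0 and 0) were 3 and 1 with no filter, 5 and 1 with the replicate block in the 6 libraries, 6 and 2 with both libraries numbered 2 left out, 6 and 3 with the covariate, and up to 6 and 2 with 1 left out. Fatty acid enzymes called lower (0) were 2 with both libraries 2 left out and with the covariate and 0 to 2 with 1 left out, and those called higher 0 to 1. Over all genes, the main fit called 0 higher and 2 lower here. No filter called 1744, the block in the 6 libraries 3792, both libraries 2 left out 4352 and the covariate 6120. Without crizotinib 2 the count was 5641. For all genes, the interaction of both drugs gave 1917 calls with both libraries 2 left out and 3316 with the covariate. The interaction gave 6 sterol enzymes higher with both libraries 2 left out, 5 with the covariate (and 1 lower) and 0 to 3 with 1 left out, and 1 fatty acid enzyme with the same settings (0 to 1 with 1 left out). The replicate block in all 12 libraries called none of the 31 genes there, and its other changes are those above.

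With the offset for GC content and length, directions turned, with a call before or after, for HMGCS1 (0.24 against control and 0.32 against IN10018), IDI1 (0.39 and 0.45), MSMO1 (0.46 and 0.46) and ELOVL6 (0.11 and 0.14) in the combination, for FASN in the combination against control (-0.12), and for SCAP (-0.43 in the combination and -0.25 with crizotinib against control, and -0.30 in the combination against IN10018). Among changes called in neither fit, those of INSIG2 (0.28), CYP51A1 (0.40), SQLE (0.16) and SREBF2 (-0.02) in the combination against control changed sign too, to 2 decimals, as did those of HMGCS1, DHCR7, ACACA, ELOVL6 and INSIG2 with crizotinib. The cause was not tested. Library totals in place of TMM shifted the median of all tested genes by 0.178 in the combination and 0.122 with crizotinib against control, and by 0.112 in the combination against IN10018.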

Other observations

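Genes of fatty acid oxidation, the reverse route, were listed beside those of synthesis. They too are given from the main fit only, without the offset for GC content and length. Of 21 tested, 6 rose and 8 fell in the combination against control (28.6% and 38.1%, against 33.7% and 29.1% of all genes tested), and 5 rose and 2 fell with crizotinib (23.8% and 9.52%, against 20.0% and 17.6%). Their median log2 changes were -0.12 and -0.02, against 0.10 and 0.08 over all genes tested. ETFB, a subunit of the flavoprotein that takes electrons from acyl-CoA dehydrogenases, averaged 80.4 ± 34.2 CPM in the combination and 21.8 CPM in control, and rose by 1.88 ± 0.29 (edgeR adjusted p = 0.00016). ECI1, an isomerase for unsaturated fatty acids, rose by 1.58 ± 0.26 (edgeR adjusted p = 0.00022), and ACADVL, the dehydrogenase for very long chains, rose by 0.89 ± 0.15 (edgeR adjusted p = 0.00022). Its neighbours in the route went both ways: ETFA, the partner subunit of ETFB, fell by 0.53 on the log2 scale (edgeR adjusted p = 0.00055), and it was chosen for mention after its value was seen. HADH fell by 0.48 on the log2 scale with crizotinib (edgeR adjusted p = 0.0099). With IN10018 none of the 21 was called by edgeR, and none had an unadjusted p under 0.05.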
